A study of Mus musculus with 6 samples.

Results

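The genes described here encode chemokines, interleukins, colony-stimulating factors, the tumour necrosis factor (TNF) family, their receptors and the NF-kB transcription factor system. They were taken by symbol from the deposited count table: rows beginning with Ccl, Cxcl, Il, Tnfaip and a digit, with Tnfsf, Tnfrsf or Nfkb, and Tnf, Rel, Rela, Relb, Csf1, Csf2, Csf3, Lif and Icam1. This gave 115 of 23399 genes. Of these, 51 encode ligands, secreted antagonists or binding proteins, 45 encode receptor chains and 11 are NF-kB parts. A further 6 are Tnfaip genes or Icam1, called TNF-induced below. The other 2 (Il4i1, an enzyme, and Tnfsf13os, an antisense transcript) belong to none of these. Polyadenylated RNA was sequenced from CMT93 spheroids, CMT93 being a mouse colorectal carcinoma cell line for which the labels name no engineered allele. All 6 libraries came from cells grown on soft agar with dilute Matrigel, with no other cell type named in the culture. The vehicle group (3 libraries) received ethanol incubated with bovine serum albumin, and the palmitate group (3 libraries) received 200 µM sodium palmitate, a saturated fatty acid, bound to the same albumin, for 1 week in monolayer and then 5 days as spheroids. The comparison asks which of these messages differ between spheroids grown with and without the fatty acid, in a series that concerns steatosis and liver metastases of colorectal cancer.

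Cytokines are secreted or membrane-bound proteins that carry signals between cells, and chemokines are the cytokines that direct the movement of leukocytes. Receptors for TNF, interleukin 1 and bacterial products activate the IKK kinases. These mark the inhibitory IkB proteins for destruction and so release dimers of Rela, Rel and the product of Nfkb1 into the nucleus. Relb and the product of Nfkb2 form the dimer of a separate, alternative pathway. Many targets of NF-kB dimers are themselves chemokines, cytokines, IkB genes and the deubiquitinase Tnfaip3, so the system feeds back on itself. Intestinal epithelium uses it for defence at the mucosal surface, and colorectal carcinoma cells secrete several of these chemokines.

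Promoters of a few members are shown for the NF-kB binding motif, a match to which was found in 24 of the 86 members with a promoter. Promoter sequences were those of RefSeq for build GRCm38.p6, whereas the counts were made on mm39, so the positions hold for the former only. Of the 115 members, 86 were matched to a promoter, and the 250 bases before each start site were searched on both strands for the 10-base NF-kB consensus. The consensus was found in 26 of 111 promoters of members (23.4%), against 7.25% of all 32851 promoters of that table. Printed 5′ to 3′ on the gene's own strand, with matches to the consensus in capitals, the 250 bases before the start were as follows for Nfkbid, the NF-kB part with the greatest rise, for Nfkbie, the NF-kB part that fell most, for the first start site of Nfkb2, for Il6, the called ligand with a match that changed most, and for Tnf, which held no match in this window.

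Nfkbid, chr7:30422156-30422405, plus strand: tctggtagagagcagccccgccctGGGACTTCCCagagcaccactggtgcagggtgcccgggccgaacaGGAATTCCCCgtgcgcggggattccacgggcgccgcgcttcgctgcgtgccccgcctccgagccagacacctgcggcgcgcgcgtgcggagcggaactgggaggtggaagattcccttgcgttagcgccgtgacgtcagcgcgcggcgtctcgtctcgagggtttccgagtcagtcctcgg
Nfkbie, chr17:45555450-45555699, plus strand: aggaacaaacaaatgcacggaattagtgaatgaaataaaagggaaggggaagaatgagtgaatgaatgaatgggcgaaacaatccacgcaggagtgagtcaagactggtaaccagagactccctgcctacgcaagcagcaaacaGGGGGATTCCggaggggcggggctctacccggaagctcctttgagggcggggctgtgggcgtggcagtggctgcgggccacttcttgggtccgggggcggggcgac
Nfkb2, chr19:46304487-46304736, plus strand: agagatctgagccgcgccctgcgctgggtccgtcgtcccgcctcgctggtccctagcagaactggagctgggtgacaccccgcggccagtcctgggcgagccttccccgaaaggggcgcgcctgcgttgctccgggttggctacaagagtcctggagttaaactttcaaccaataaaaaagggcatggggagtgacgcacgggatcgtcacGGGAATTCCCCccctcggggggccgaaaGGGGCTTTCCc
Il6, chr5:30012864-30013113, plus strand: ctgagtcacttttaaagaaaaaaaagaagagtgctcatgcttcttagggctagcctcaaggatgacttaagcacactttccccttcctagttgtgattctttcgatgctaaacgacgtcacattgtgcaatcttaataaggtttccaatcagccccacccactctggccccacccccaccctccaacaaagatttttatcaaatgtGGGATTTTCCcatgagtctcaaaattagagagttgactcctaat
Tnf, chr17:35202008-35202257, minus strand: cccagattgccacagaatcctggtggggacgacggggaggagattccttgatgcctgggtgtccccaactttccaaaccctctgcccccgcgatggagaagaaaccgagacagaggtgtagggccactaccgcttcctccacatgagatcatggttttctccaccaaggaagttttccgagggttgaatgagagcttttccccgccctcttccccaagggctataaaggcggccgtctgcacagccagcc

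The neighbouring chemokine genes Cxcl1, Cxcl2 and Cxcl3 share one 11-base run, and 60 bases around it are shown because the genes lie in the same cluster. The run also stands in the promoter of Il16, a lymphocyte attractant too low to be tested.

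Cxcl1, chr5:90891154-90891213, plus strand: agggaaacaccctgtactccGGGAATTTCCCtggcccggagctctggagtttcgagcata
Cxcl2, chr5:90903782-90903841, plus strand: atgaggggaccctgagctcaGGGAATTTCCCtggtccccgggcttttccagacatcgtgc
Cxcl3, chr5:90786008-90786067, plus strand: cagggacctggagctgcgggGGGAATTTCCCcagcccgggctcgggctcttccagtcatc

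The run began 71 bases before the start of Cxcl1, 97 before that of Cxcl2 and 73 before that of Cxcl3. Over these 60 positions Cxcl1 was identical to Cxcl2 at 30 and to Cxcl3 at 30. A match describes letters and was not tested as a binding site.

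The libraries held 18898896 to 21851987 counts with vehicle and 22516639 to 22852940 with palmitate, so every palmitate library was the deeper, and thinning all libraries to the shallowest was one of the alternatives. Separate cultures are not named for the replicates, and a p-value therefore sets a difference only against the spread of these libraries, which may be technical. The epithelial markers Epcam, Cdh1, Krt8, Krt18 and Krt19 had group means of 657 (Epcam with palmitate) to 2158 (Cdh1 with vehicle) CPM (counts per 1000000, TMM-normalised). Over all libraries Cldn7 was at 202.1, Vil1 at 15.05 and the intestinal marker Krt20 at 0.192 CPM. Cdx2 rose from 1.72 ± 0.276 to 2.46 ± 0.365 CPM (± gives the SD, n = 3 libraries, throughout). Of 8 tested epithelial markers 3 were called higher and 3 lower (75.0% called, against 52.8% of all tested genes). With palmitate Krt18 fell from 1445 to 1079 CPM, Krt8 fell from 1702 to 1438 CPM and Krt19 rose from 1249 to 1364 CPM. Of leukocyte markers, 7 of the 16 listed were among the 23399 genes counted, and 2 passed the filter for testing. The 7 had a summed level of 7.60 to 9.74 CPM with vehicle and 10.03 to 11.3 CPM with palmitate. Most of that sum was Cd68, which is also made outside leukocytes and rose (from 7.14 ± 0.739 to 9.66 ± 0.622 CPM, log2 fold change 0.44, adjusted p = 1.9e-05, edgeR), while Ptprc fell (from 0.836 ± 0.138 to 0.266 ± 0.0452 CPM). Csf1r, Itgam, Lyz2, Fcer1g and Cd79a were each below 1 CPM on average. The 6 endothelial markers summed to 3.46 to 3.88 CPM with vehicle and 2.22 to 2.73 CPM with palmitate. Of 8 fibroblast markers, 5 were among the genes counted and 2 were tested. The 5 summed to 4.75 to 5.32 CPM with vehicle and 1.79 to 2.93 CPM with palmitate, most of it Acta2 and Col1a1. The part of these marker changes in the results below was not tested. In bulk RNA, fewer cells that make a message and less message per cell cannot be told apart.

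Spheroids grown with palmitate had less message for many chemokines and cytokines, among them Tnf, Ccl2, Cxcl5, Cxcl15, Csf3 and Il23a, and for the secreted decoy receptor Tnfrsf11b. They had more for Tnfsf12, Il33 and, from means under 1 CPM (counts per 1000000), for Tnfsf15, the receptor Il27ra and the IkB-like gene Nfkbid. The values of Tnfsf12 are uncertain, because it overlaps a readthrough gene on the same strand. Of the 115 members, 84 passed the filter on low counts, and 50 of them (59.5%) passed a Benjamini-Hochberg threshold of 0.05 in edgeR's two-sided quasi-likelihood test, against 52.8% of all 14987 tested genes. Among the members 20 were called higher with palmitate (23.8%, against 27.4% of all tested genes) and 30 lower (35.7%, against 25.4%). The median log2 fold change of the tested members was -0.05, and that of all tested genes was 0.00. Most changes were small, and the median called member differed 1.25-fold, against 1.19-fold for all called genes. A change of at least 1.5-fold that was also called was found for 4 members upward and 9 downward, 15.5% of those tested against 11.7% of all genes. Among all tested genes such changes also lay more often downward, with 588 upward and 1164 downward. Vehicle and palmitate libraries did not overlap in 61.9% of the tested members (21 with palmitate above, 31 with palmitate below), against 57.8% of all tested genes. These shares describe the set and are no test of it. By promoter, 16 tested members held the NF-kB consensus, with 3 called higher, 4 lower and 9 uncalled, and 44 tested members had a promoter without it, with 12 called higher, 12 lower and 20 uncalled. Both counts stand beside the 52.8% called among all tested genes, and no difference between them was tested.

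**Figure D1:**
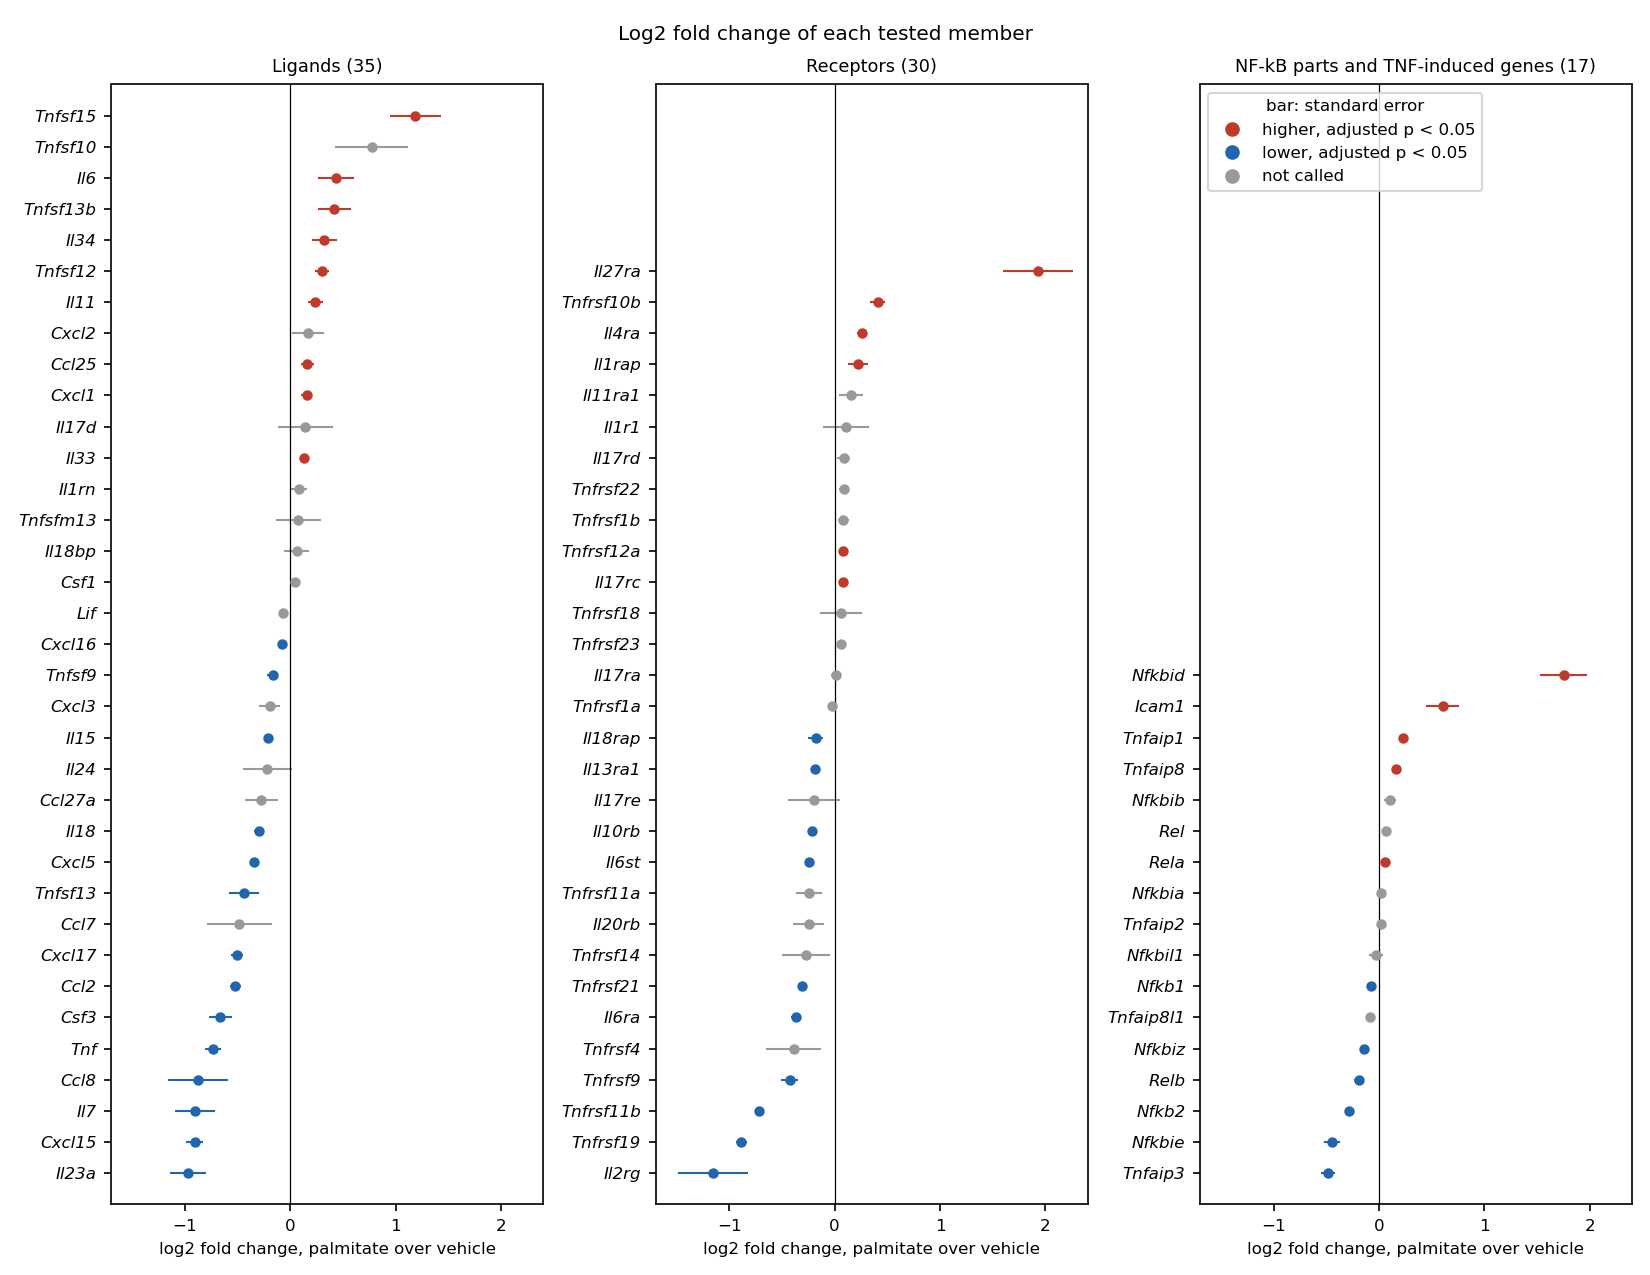
Log2 fold change (palmitate over vehicle, x axis) of each tested ligand, receptor and NF-kB or TNF-induced gene, with standard errors as bars and calls at an adjusted p under 0.05 in colour. Of the ligands 9 were called higher and 14 lower, of the receptors 6 and 10, and of the NF-kB parts and TNF-induced genes 5 and 6. The shares called were 65.7%, 53.3% and 64.7%, against 52.8% of all tested genes.

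**Figure D2:**
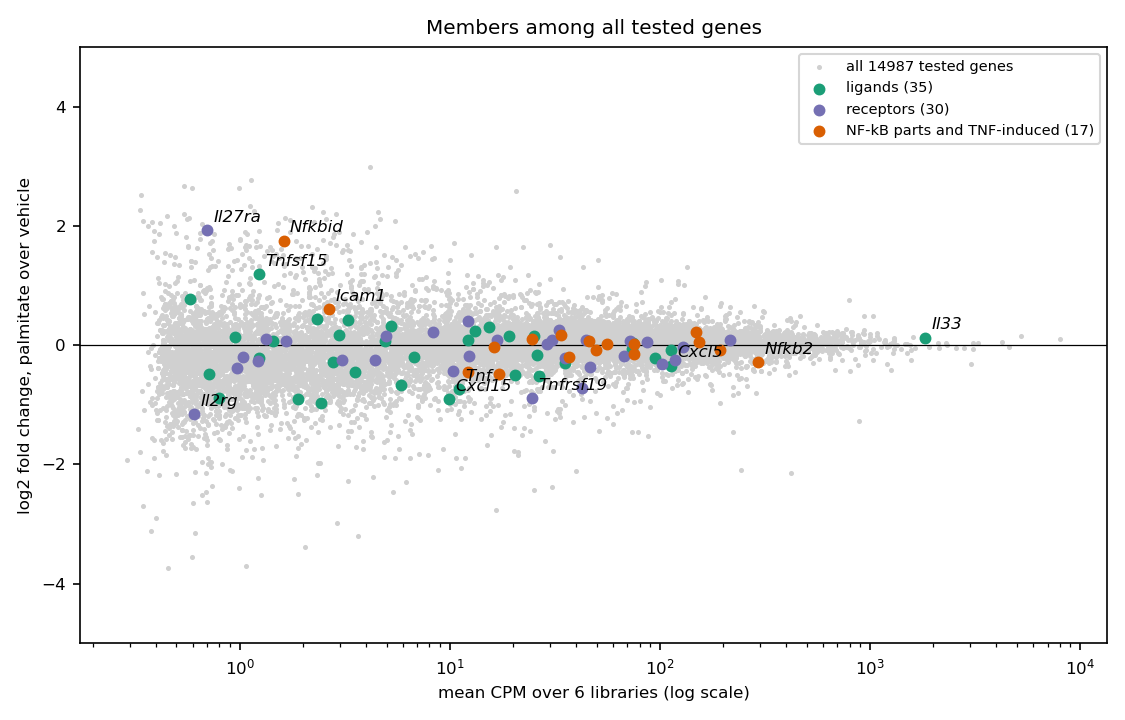
Mean level over the 6 libraries (CPM, log scale, x axis) and log2 fold change (y axis) of all 14987 tested genes in grey, with the members coloured by role. The members lie within the cloud of all genes, and those past 1 on the log2 scale in either direction (Il27ra, Nfkbid, Tnfsf15 and Il2rg) have mean levels of 0.605 to 1.62 CPM.

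Of 35 tested ligands 23 were called (65.7%, against 52.8% of all tested genes), 9 higher and 14 lower, and a median log2 fold change of -0.08. Of 12 tested chemokines, 6 fell (50.0%, against 25.4% of all tested genes), 2 rose (16.7%, against 27.4%) and 4 were uncalled. Their median log2 fold change was -0.31. Cxcl5 (ENSMUSG00000029371.8), a neutrophil attractant made by epithelium, had 129, 123 and 129 CPM with vehicle and 100.5, 99.7 and 100.2 CPM with palmitate. The groups did not overlap, and Cxcl5 fell 1.27-fold (edgeR log2 fold change -0.34 with SE 0.0265 and adjusted p = 4.77e-20). Cxcl15 (ENSMUSG00000029375.7), another neutrophil attractant of mouse epithelia, had 13.6, 12.6 and 12.6 CPM with vehicle and 6.67, 7.19 and 6.74 CPM with palmitate. Every palmitate library lay far below every vehicle library, a 1.88-fold fall (edgeR log2 fold change -0.91 with SE 0.0828 and adjusted p = 1.51e-16). Ccl2 (ENSMUSG00000035385.6), the main attractant of monocytes, had 31.4, 30.5 and 31.9 CPM with vehicle and 23.8, 20.2 and 21.4 CPM with palmitate. Its palmitate libraries were all below its vehicle libraries and varied more among themselves (edgeR log2 fold change -0.52 with SE 0.0521 and adjusted p = 9.67e-15). Cxcl17 (ENSMUSG00000060188.7), a chemokine-like protein of mucosal surfaces, had 23.2, 25.2 and 23.2 CPM with vehicle and 17.2, 16.1 and 17.2 CPM with palmitate, a 1.42-fold fall without overlap (edgeR log2 fold change -0.51 with SE 0.0574 and adjusted p = 1.85e-12). Cxcl16, the transmembrane ligand of Cxcr6, had 116, 116 and 118 CPM with vehicle and 110.3, 109 and 111 CPM with palmitate, a slight fall (log2 fold change -0.08). Ccl8, a monocyte attractant, fell at a low level (from 1.04 ± 0.123 to 0.563 ± 0.0721 CPM, log2 fold change -0.88). Cxcl1, a ligand of the same neutrophil receptor as Cxcl5, went the other way, with 23.8, 24.0 and 23.5 CPM with vehicle and 26.0, 26.4 and 26.9 CPM with palmitate. Its rise was small and without overlap (edgeR log2 fold change 0.16 with SE 0.0510 and adjusted p = 0.00737), and it was not called with DESeq2 (adjusted p = 0.0832) or after thinning. The calls of Cxcl16 and Ccl8 were also lost with DESeq2.

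Chemokine genes lie in clusters, and neighbours did not all change together. In the RefSeq order of chromosome 5 (GRCm38.p6), Cxcl5, Cxcl3, Cxcl15, Cxcl1 and Cxcl2 follow each other with at most 2 other protein-coding genes between any pair of neighbours. Cxcl5 and Cxcl15 fell and Cxcl1 rose. Cxcl3 had 7.37, 6.92 and 7.34 CPM with vehicle and 6.22, 6.48 and 6.17 CPM with palmitate, below vehicle in every library but not past the threshold (log2 fold change -0.20, adjusted p = 0.0855, edgeR). Cxcl2 had 2.84, 2.59 and 2.95 CPM with vehicle and 3.04, 3.06 and 3.30 CPM with palmitate, above vehicle in every library and not past the threshold either (log2 fold change 0.17, adjusted p = 0.362, edgeR). Of these neighbours, which share the 11-base run printed above, Cxcl1 was called by edgeR and Cxcl2 and Cxcl3 were not, and differences between the genes were not tested. On chromosome 11, Ccl2 and Ccl8 fell, while Ccl7 between them had 0.843, 1.05 and 0.600 CPM with vehicle and 0.850, 0.311 and 0.617 CPM with palmitate, with overlapping groups (adjusted p = 0.184, edgeR).

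**Figure D3:**
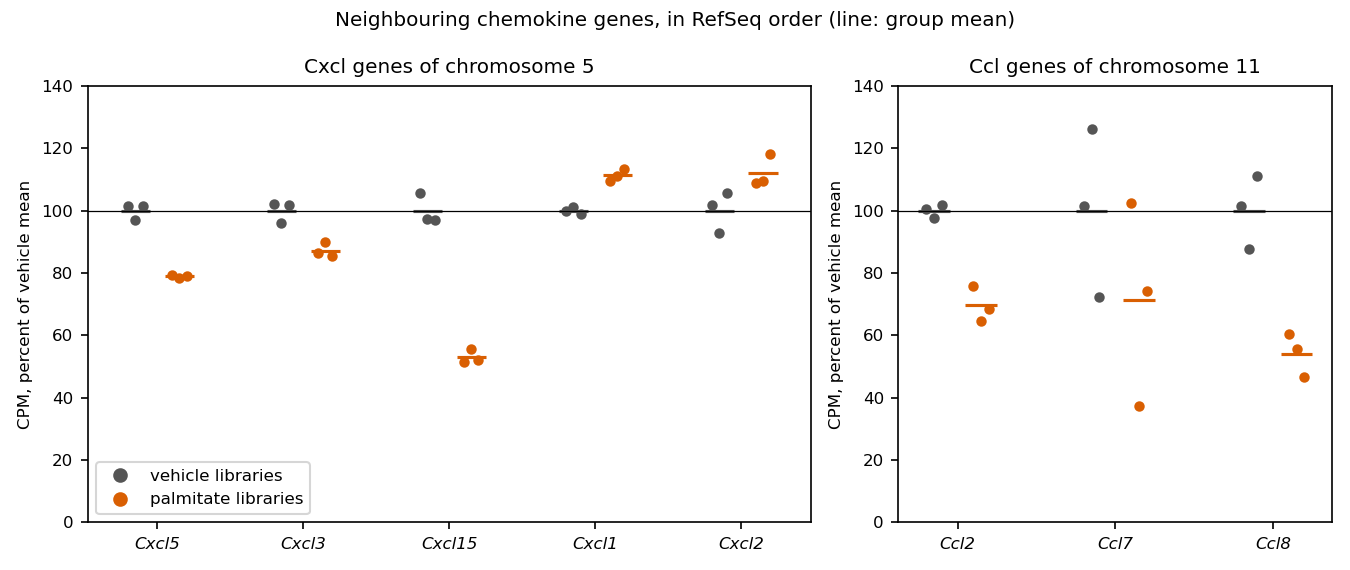
Level of each neighbouring chemokine gene in each library as a percent of its vehicle mean (y axis), in gene order along chromosomes 5 and 11, with lines at the group means. Cxcl5 and Cxcl15 lie below 100% in every palmitate library and Cxcl1 and Cxcl2 above it, while the libraries of Ccl7 spread widely.

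Interleukins and growth factors changed in both directions. Of 15 tested interleukins, colony-stimulating factors and Lif, 4 rose (26.7%, against 27.4% of all tested genes), 5 fell (33.3%, against 25.4%) and 6 were uncalled. Their median log2 fold change was 0.04. Il33 (ENSMUSG00000024810.17), an alarm cytokine stored in the nucleus of barrier epithelia, had 1745, 1744 and 1772 CPM with vehicle and 1907, 1906 and 1929 CPM with palmitate. Its 1.09-fold rise was small against its level and large against the spread (edgeR log2 fold change 0.13 with SE 0.0142 and adjusted p = 1.13e-12). Il15 (ENSMUSG00000031712.11), a growth factor of natural killer and memory T cells, had 98.3, 106 and 102 CPM with vehicle and 86.2, 85.8 and 93.1 CPM with palmitate, and fell (edgeR log2 fold change -0.21 with SE 0.0303 and adjusted p = 7.89e-09). Il18 (ENSMUSG00000039217.14), which inflammasomes activate in epithelium, had 38.0, 39.7 and 39.7 CPM with vehicle and 32.3, 32.7 and 30.6 CPM with palmitate, and fell 1.23-fold without overlap (edgeR log2 fold change -0.30 with SE 0.0443 and adjusted p = 1.07e-08). Csf3 (ENSMUSG00000038067.3), the granulocyte growth factor, had 6.85, 7.23 and 7.48 CPM with vehicle and 4.65, 4.13 and 4.84 CPM with palmitate, a 1.58-fold fall (edgeR log2 fold change -0.66 with SE 0.107 and adjusted p = 1.22e-07). Each of these genes separated the groups in full. Il23a, the subunit particular to interleukin 23, fell from 3.21 ± 0.384 to 1.64 ± 0.0397 CPM (log2 fold change -0.97), and the lymphocyte growth factor Il7 fell from 2.48 ± 0.0923 to 1.32 ± 0.190 CPM (log2 fold change -0.91). Il11, which supports regenerating epithelium, rose from 12.2 ± 0.579 to 14.3 ± 0.856 CPM (log2 fold change 0.24), although not with DESeq2 (adjusted p = 0.0564).

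Il6 (ENSMUSG00000025746.12), a driver of acute-phase and STAT3 signalling whose promoter match is printed above, had 2.00, 2.09 and 1.89 CPM with vehicle and 3.04, 2.93 and 2.11 CPM with palmitate. Palmitate library 3 lay close to vehicle, and the call (log2 fold change 0.43, adjusted p = 0.0289, edgeR) was lost without vehicle replicate 1 (0.43) or 3 (0.39), without palmitate replicate 1 (0.34) or 2 (0.37), and with DESeq2. Il34, a ligand of the macrophage growth factor receptor, had 4.79, 4.87 and 4.29 CPM with vehicle and 6.76, 5.46 and 5.24 CPM with palmitate, with palmitate library 1 the highest. It was called higher (log2 fold change 0.32, adjusted p = 0.0142, edgeR), but not without vehicle replicate 3 (0.27) or palmitate replicate 1 (0.21). Csf1, the other ligand of that receptor, had 69.2, 75.3 and 75.8 CPM with vehicle and 80.5, 73.0 and 73.9 CPM with palmitate, and its groups overlapped (adjusted p = 0.313, edgeR). Lif, a relative of Il6, had 72.1, 76.3 and 77.7 CPM with vehicle and 71.1, 74.5 and 70.0 CPM with palmitate, with overlap (log2 fold change -0.07, adjusted p = 0.0619, edgeR). Il1rn, the secreted antagonist of interleukin 1, had 11.9 ± 1.61 CPM with vehicle and 12.6 ± 0.466 CPM with palmitate, with vehicle library 3 above every other library (adjusted p = 0.384, edgeR).

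Of 8 tested TNF-family ligands, 3 rose (37.5%, against 27.4% of all tested genes), 3 fell (37.5%, against 25.4%) and 2 were uncalled. Tnf (ENSMUSG00000024401.15), the founding member and an activator of NF-kB, had 13.7, 14.1 and 13.6 CPM with vehicle and 7.74, 8.34 and 8.72 CPM with palmitate. The groups lay far apart relative to their spread, a fall of 1.67-fold (edgeR log2 fold change -0.74 with SE 0.0776 and adjusted p = 9.27e-14). Tnfsf15 (ENSMUSG00000050395.10), a costimulator of T cells linked to intestinal inflammation, had 0.843, 0.591 and 0.831 CPM with vehicle and 1.92, 1.51 and 1.72 CPM with palmitate. It rose 2.28-fold without overlap, from under 1 CPM (edgeR log2 fold change 1.19 with SE 0.238 and adjusted p = 1.36e-05). Tnfsf12 (ENSMUSG00000097328.8), the ligand TWEAK, had 14.4, 14.0 and 13.0 CPM with vehicle and 17.4, 16.7 and 16.8 CPM with palmitate, a rise of 1.23-fold (edgeR log2 fold change 0.30 with SE 0.0651 and adjusted p = 5.35e-05). Its neighbour Tnfsf13, a B-cell survival factor, fell from 4.06 ± 0.587 to 2.97 ± 0.197 CPM (log2 fold change -0.44), and was not called without vehicle replicate 1 (-0.35). Both overlap the readthrough gene Tnfsfm13 on the same strand and Tnfsf13os on the other in Gencode M21, so the values of these genes are uncertain. Tnfsf9, the ligand of the T-cell costimulator Tnfrsf9, fell from 27.4 ± 0.830 to 24.5 ± 1.93 CPM (log2 fold change -0.17), and was not called without palmitate replicate 1 (-0.10). Tnfsf13b, another B-cell survival factor, had 2.58, 3.00 and 2.77 CPM with vehicle and 4.61, 4.04 and 2.55 CPM with palmitate. Palmitate library 3 lay below every vehicle library, so the groups overlapped although the gene was called higher (log2 fold change 0.42, adjusted p = 0.0203, edgeR). The log2 fold change was 0.63 without that library, and the call was lost without vehicle replicate 1 (0.37), palmitate replicate 1 (0.24) or palmitate replicate 2 (0.36). Tnfsf10, the death ligand TRAIL, had 0.211, 0.409 and 0.646 CPM with vehicle and 0.537, 1.06 and 0.617 CPM with palmitate, and was not past the threshold (adjusted p = 0.0516, edgeR).

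**Figure D4:**
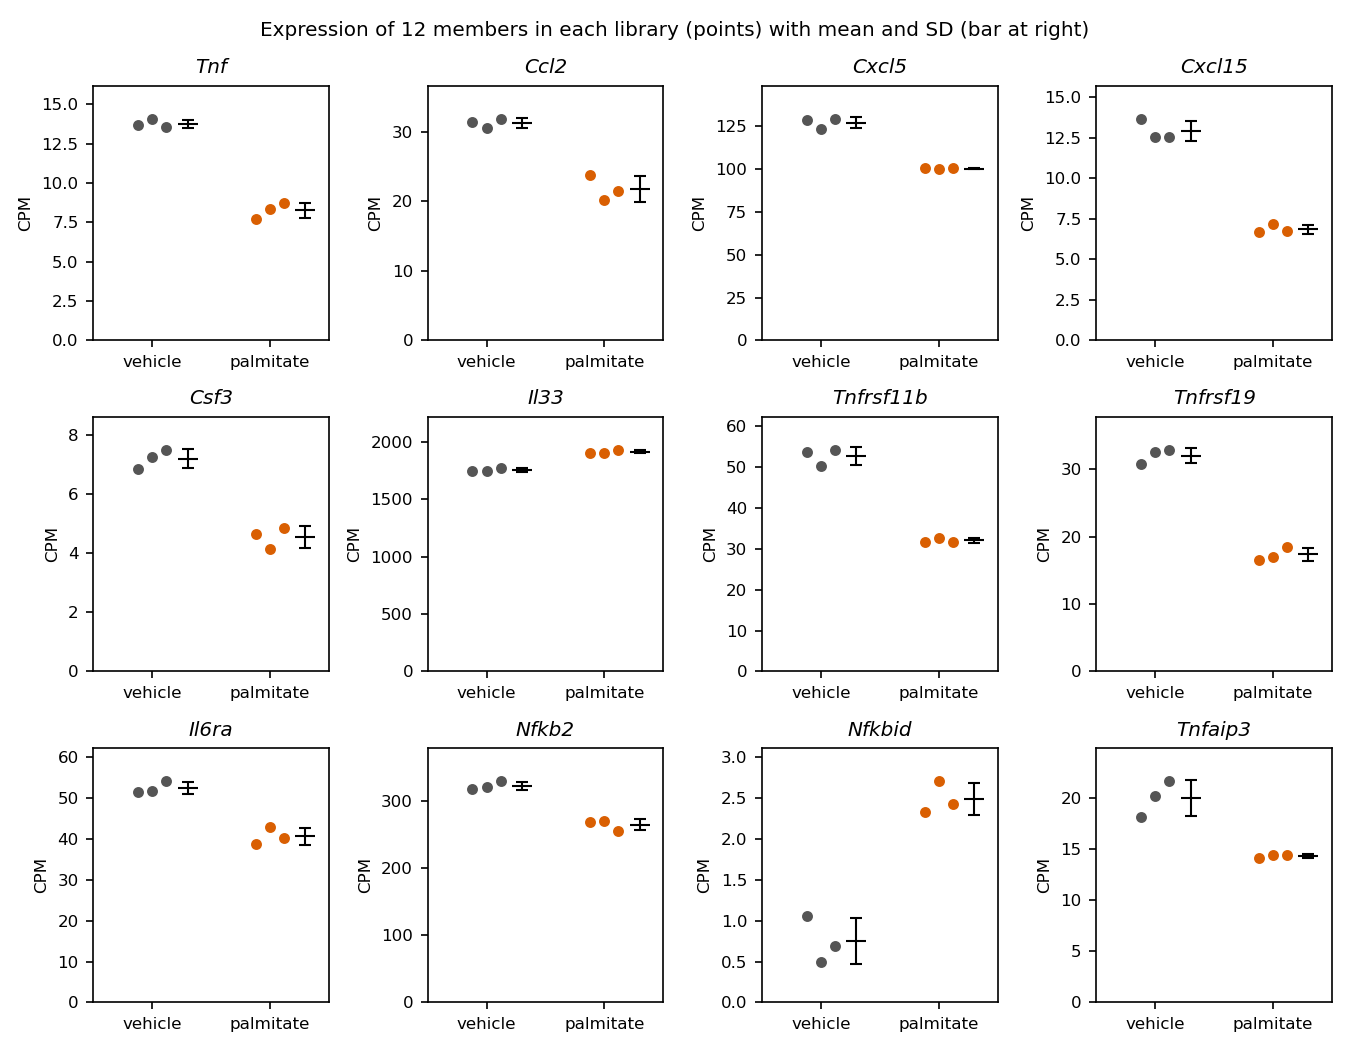
CPM (y axis, from 0) of 12 members in each of the 3 vehicle and 3 palmitate libraries (points), with the mean and SD of each group beside them. In all 12 panels the groups do not overlap, with Il33 and Nfkbid higher and the others lower with palmitate. The 12 were picked by hand and all are called members. Groups did not overlap in 61.9% of tested members and 57.8% of all tested genes.

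Receptors were called in 16 of 30 tested cases (53.3%, against 52.8% of all tested genes), 6 higher and 10 lower, with a median log2 fold change of -0.10. Among interleukin receptor chains 4 of 16 rose, 6 fell and 6 were uncalled (62.5% called, against 52.8% of all tested genes). Il6ra (ENSMUSG00000027947.12), which binds Il6, had 51.4, 51.8 and 54.1 CPM with vehicle and 38.7, 42.9 and 40.2 CPM with palmitate, and fell 1.29-fold (edgeR log2 fold change -0.37 with SE 0.0401 and adjusted p = 2.91e-13). Its partner Il6st (ENSMUSG00000021756.13), the signalling chain gp130 shared by the Il6 family, had 124, 127 and 133 CPM with vehicle and 109, 106 and 109 CPM with palmitate, and fell 1.18-fold (edgeR log2 fold change -0.24 with SE 0.0265 and adjusted p = 2.93e-13). Both fell without overlap. Il27ra (ENSMUSG00000005465.10), the chain that binds interleukin 27, had 0.369, 0.228 and 0.277 CPM with vehicle and 1.34, 0.976 and 1.01 CPM with palmitate. This was the greatest rise of any member, 3.81-fold, at a level near 1 CPM (edgeR log2 fold change 1.93 with SE 0.330 and adjusted p = 5.09e-07). Il27ra overlaps Palm3 on the opposite strand in Gencode M21. Il4ra (ENSMUSG00000030748.10), the chain that receptors for interleukins 4 and 13 share, had 30.8, 30.2 and 29.1 CPM with vehicle and 35.1, 36.6 and 35.8 CPM with palmitate, and rose 1.19-fold (edgeR log2 fold change 0.26 with SE 0.0455 and adjusted p = 1.3e-06). Il13ra1 (ENSMUSG00000017057.10), its partner in binding interleukin 13, had 69.8, 70.3 and 74.3 CPM with vehicle and 64.6, 61.5 and 62.4 CPM with palmitate, and fell (edgeR log2 fold change -0.19 with SE 0.0337 and adjusted p = 1.67e-06). The chains of that receptor therefore differed in direction. Il10rb, a chain of receptors for the interleukin 10 family, fell from 38.1 ± 1.16 to 32.9 ± 0.429 CPM (log2 fold change -0.21), and Il2rg, the common gamma chain of lymphocyte cytokine receptors, fell from a low level (from 0.840 ± 0.192 to 0.369 ± 0.0648 CPM, log2 fold change -1.15), with its call lost by DESeq2 (adjusted p = 0.0510).

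Tnfrsf11b and Tnfrsf19, both TNF receptors, had the smallest p-values of all members. Of 14 tested, 2 rose (14.3%, against 27.4% of all tested genes), 4 fell (28.6%, against 25.4%) and 8 were uncalled. Tnfrsf11b (ENSMUSG00000063727.4), the secreted decoy receptor osteoprotegerin, had 53.8, 50.3 and 54.1 CPM with vehicle and 31.8, 32.7 and 31.7 CPM with palmitate. It fell 1.64-fold with no overlap (edgeR log2 fold change -0.72 with SE 0.0416 and adjusted p = 2.29e-27). Tnfrsf19 (ENSMUSG00000060548.14), a WNT target gene and stem cell marker of the gut, had 30.8, 32.5 and 32.8 CPM with vehicle and 16.6, 16.9 and 18.5 CPM with palmitate. All palmitate libraries lay far below the vehicle libraries, a 1.85-fold fall (edgeR log2 fold change -0.89 with SE 0.0535 and adjusted p = 2.85e-26). Tnfrsf21 (ENSMUSG00000023915.6), a receptor with a death domain, had 111, 114 and 116 CPM with vehicle and 94.1, 92.9 and 87.7 CPM with palmitate, and fell 1.24-fold (edgeR log2 fold change -0.31 with SE 0.0283 and adjusted p = 8.89e-17). Tnfrsf9 fell from 11.8 ± 0.571 to 8.79 ± 0.577 CPM (log2 fold change -0.43), and Tnfrsf12a, the receptor of TWEAK, rose slightly (from 210.3 ± 5.94 to 222 ± 1.67 CPM, log2 fold change 0.08). The death receptor Tnfrsf10b had 10.5, 11.2 and 9.88 CPM with vehicle and 13.3, 13.6 and 15.02 CPM with palmitate, a rise without overlap (log2 fold change 0.41). The receptors of Tnf itself were not called. Tnfrsf1a had 132, 131 and 129 CPM with vehicle and 127, 134 and 123 CPM with palmitate, with overlap (log2 fold change -0.03, adjusted p = 0.393, edgeR). Tnfrsf1b had 28.5, 28.6 and 31.9 CPM with vehicle and 33.1, 30.1 and 31.2 CPM with palmitate, also with overlap (log2 fold change 0.08, adjusted p = 0.149, edgeR). Tnfrsf11a, the receptor RANK, had 4.78 ± 0.536 CPM with vehicle and 4.05 ± 0.194 CPM with palmitate and was not called (adjusted p = 0.0894, edgeR).

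Set side by side by pathway, ligands and receptors showed several patterns. For TNF the ligand fell and neither receptor was called. For TWEAK the ligand Tnfsf12 and the receptor Tnfrsf12a both rose, by 0.30 and 0.08 on the log2 scale. Tnfsf12 overlaps Tnfsfm13 on the same strand in Gencode M21 and is uncertain. Tnfsf9 and its receptor Tnfrsf9 both fell, by 0.17 and 0.43. In the gp130 family the ligands Il6 and Il11 were called higher (0.43 and 0.24), while the ligand Lif was not called (-0.07, adjusted p = 0.0619, edgeR). The receptor chains Il6ra and Il6st were lower (-0.37 and -0.24) and Il11ra1 was not called (0.15, adjusted p = 0.278, edgeR). Il11ra1 overlaps 6 other genes in Gencode M21 and is uncertain. Il18 and the receptor chain Il18rap were both called lower (-0.30 and -0.18). The other chain, Il18r1, had only 1, 1 and 2 counts with vehicle and 2, 5 and 1 with palmitate. Il7 and Il15 were lower with the chain Il2rg, which their receptors share. Of the further chains, Il15ra had 4, 1 and 5 counts with vehicle and 7, 6 and 8 with palmitate. Il2rb had 3, 5 and 2 counts with vehicle and 2, 3 and 2 with palmitate, and Il7r was not among the members. Il18r1, Il15ra and Il2rb were too low to be tested. Il33 and the accessory chain Il1rap were both called higher (0.13 and 0.22), but Il1rl1, the chain that binds Il33, had only 2, 3 and 4 counts with vehicle and 3, 3 and 2 with palmitate. The calls of Il6, Il11, Il2rg, Tnfsf9, Il18rap and Il1rap did not hold under every alternative, and each of them was lost with DESeq2.

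**Figure D5:**
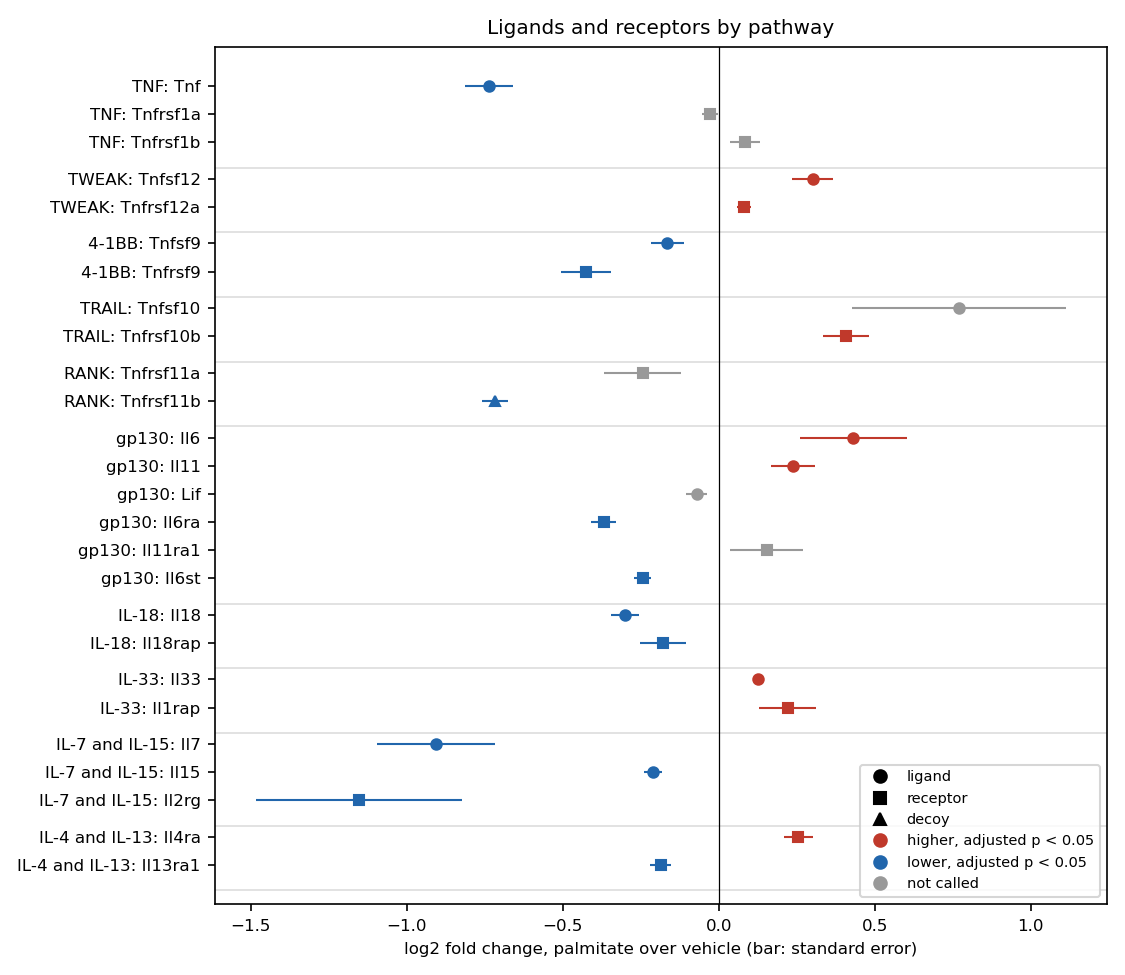
Log2 fold change (palmitate over vehicle, x axis) with standard errors of ligands, receptors and the decoy Tnfrsf11b, grouped by the pathway they serve and coloured by call. Tnf lies at -0.74 while Tnfrsf1a and Tnfrsf1b lie near 0, and Il6 and Il11 lie above 0 while Il6ra and Il6st lie below it. Lif, a relative of Il6, was not called.

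The NF-kB parts all passed the count filter. Of 11, 2 rose (18.2%, against 27.4% of all tested genes), 5 fell (45.5%, against 25.4%) and 4 were uncalled. Their median log2 fold change was -0.03. Nfkb2 (ENSMUSG00000025225.16), the precursor of the alternative pathway's subunit, had 317, 320.2 and 329 CPM with vehicle and 268, 270.0 and 255 CPM with palmitate. It fell 1.22-fold without overlap (edgeR log2 fold change -0.29 with SE 0.0198 and adjusted p = 2.32e-22). Relb (ENSMUSG00000002983.18), which pairs with the Nfkb2 product, had 39.7, 38.9 and 39.9 CPM with vehicle and 35.8, 35.5 and 32.6 CPM with palmitate, and fell as well (edgeR log2 fold change -0.19 with SE 0.0437 and adjusted p = 0.000127). Both genes of the alternative dimer were therefore lower. Nfkb1 (ENSMUSG00000028163.18), the precursor of the classical pathway's subunit, had 202, 197 and 199 CPM with vehicle and 192, 187 and 186 CPM with palmitate, a small fall without overlap (edgeR log2 fold change -0.08 with SE 0.0213 and adjusted p = 0.00109). Rela (ENSMUSG00000024927.9), the main activating subunit, had 147, 155 and 149.8 CPM with vehicle and 157, 161 and 153 CPM with palmitate. Its groups overlapped, and its call (log2 fold change 0.06, adjusted p = 0.0271, edgeR) was lost without vehicle replicate 1 (0.05) or 3 (0.05), without palmitate replicate 2 (0.04) and with DESeq2. Rel, the subunit best known from lymphocytes, had 43.4, 45.5 and 45.3 CPM with vehicle and 47.8, 46.0 and 47.2 CPM with palmitate, above vehicle in every library by a narrow margin and not past the threshold (adjusted p = 0.132, edgeR).

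The IkB and IkB-like genes parted. Nfkbid (ENSMUSG00000036931.16), a nuclear IkB-like regulator with a pair of consensus matches in the promoter printed above, had 1.05, 0.500 and 0.692 CPM with vehicle and 2.33, 2.71 and 2.42 CPM with palmitate. It rose 3.37-fold from a mean under 1 CPM, the greatest rise among NF-kB parts (edgeR log2 fold change 1.75 with SE 0.223 and adjusted p = 1.12e-10). Nfkbie (ENSMUSG00000023947.9), a cytoplasmic IkB, had 13.8, 14.2 and 14.0 CPM with vehicle and 11.8, 9.89 and 9.34 CPM with palmitate, and fell 1.36-fold (edgeR log2 fold change -0.44 with SE 0.0755 and adjusted p = 4.8e-07). Nfkbiz (ENSMUSG00000035356.18), a nuclear IkB-like factor that epithelia induce on interleukin 17, had 78.6, 78.8 and 79.0 CPM with vehicle and 73.4, 71.8 and 69.5 CPM with palmitate, a small fall without overlap (edgeR log2 fold change -0.14 with SE 0.0317 and adjusted p = 0.000109). Nfkbia, the main cytoplasmic IkB and an NF-kB target, had 54.0, 56.0 and 56.7 CPM with vehicle and 57.6, 54.0 and 57.8 CPM with palmitate, with overlapping groups (edgeR log2 fold change 0.02, adjusted p = 0.653). Nfkbib, its close relative, had 24.1, 25.6 and 21.7 CPM with vehicle and 25.7, 24.6 and 26.3 CPM with palmitate, also with overlap (adjusted p = 0.101, edgeR).

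The 6 genes grouped as TNF-induced, which are Icam1 and those with a Tnfaip symbol, held 3 that rose, 1 that fell and 2 that were uncalled. The shares were 50.0% higher and 16.7% lower, against 27.4% and 25.4% of all tested genes. Tnfaip8l1, included by its symbol, was not called (adjusted p = 0.0623, edgeR). Tnfaip3 (ENSMUSG00000019850.12), the deubiquitinase A20 that ends NF-kB signalling, had 18.2, 20.2 and 21.7 CPM with vehicle and 14.1, 14.5 and 14.5 CPM with palmitate. It fell 1.40-fold, and the palmitate libraries lay closer together than the vehicle libraries (edgeR log2 fold change -0.49 with SE 0.0633 and adjusted p = 2.51e-10). Icam1 (ENSMUSG00000037405.9), the ligand of leukocyte integrins, had 1.74, 2.23 and 2.35 CPM with vehicle and 3.04, 3.50 and 3.13 CPM with palmitate, a 1.52-fold rise at a low level (edgeR log2 fold change 0.60 with SE 0.160 and adjusted p = 0.000952). Tnfaip1 (ENSMUSG00000017615.13), an adaptor of a ubiquitin ligase, had 138, 143 and 129.9 CPM with vehicle and 160.1, 159 and 160.4 CPM with palmitate, and rose 1.17-fold (edgeR log2 fold change 0.22 with SE 0.0246 and adjusted p = 6.86e-13). Tnfaip8 (ENSMUSG00000062210.14), a regulator of cell survival, had 32.8, 31.6 and 31.1 CPM with vehicle and 34.3, 35.1 and 37.4 CPM with palmitate, and rose 1.12-fold (edgeR log2 fold change 0.16 with SE 0.0456 and adjusted p = 0.00154). Tnfaip2 had 74.9 ± 0.996 CPM with vehicle and 75.7 ± 0.960 CPM with palmitate and was not called (adjusted p = 0.707, edgeR). Genes that share the TNF-induced name thus did not move in one direction.

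Other genes of the pathway, taken from 6 lists of 135 genes, gave 92 tested genes, of which 25 were higher (27.2%, against 27.4% of all tested genes) and 30 lower (32.6%, against 25.4%), with a median log2 fold change of -0.01. Among IKK kinases and adaptors 10 of 35 tested rose, 8 fell and 17 were uncalled (51.4% called, against 52.8% of all tested genes). Ikbkb, the IKK kinase of the classical pathway, rose from 75.2 ± 0.450 to 102 ± 2.03 CPM, the ubiquitin ligase Traf6 rose from 37.8 ± 0.948 to 50.8 ± 1.87 CPM, and the adaptor Traf3 rose from 106 ± 1.57 to 126 ± 1.70 CPM (log2 fold changes 0.43, 0.43 and 0.24). The greatest changes of this list, chosen after their values were seen, were falls of Birc3, an inhibitor of apoptosis and ubiquitin ligase (from 0.931 ± 0.220 to 0.414 ± 0.0645 CPM, log2 fold change -1.17), and of Nod2, a sensor of bacterial cell walls (from 9.80 ± 0.0259 to 6.55 ± 0.0505 CPM, log2 fold change -0.58). Among brakes of the pathway 5 of 19 rose, 6 fell and 8 were uncalled (57.9% called, against 52.8%). The ubiquitin ligase Itch rose (0.24), while the deubiquitinase Otud7b (-0.15) and the Toll pathway inhibitor Tollip (-0.19) fell, in log2 fold changes. For Toll-like receptors and their partners the share called was 42.9% of 7 tested genes, below the 52.8% of all tested genes. Of the 7, 1 rose, 2 fell and 4 were uncalled. Tlr4, the receptor of lipopolysaccharide, fell from 45.0 ± 1.60 to 38.1 ± 0.204 CPM, Tlr6 fell from 5.76 ± 0.755 to 3.83 ± 0.0982 CPM and Tlr9 rose from 0.993 ± 0.329 to 2.06 ± 0.282 CPM. For chemokine receptors and further chemokines the share was 50.0% of only 4 tested genes, also below 52.8%. Of the 4, 0 rose, 2 fell and 2 were uncalled. The scavenging receptor Ackr3 fell from 33.8 ± 2.29 to 25.8 ± 0.863 CPM, and Cxcr3 was called lower at 1.49 ± 0.364 CPM with vehicle and 0.901 ± 0.370 CPM with palmitate.

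Among 14 further known NF-kB target genes that were tested, 2 rose, 8 fell and 4 were uncalled, with a median log2 fold change of -0.22 and 71.4% called against 52.8% of all tested genes. Pigr, which carries antibodies across mucosal epithelium, fell from 18.7 ± 0.738 to 5.03 ± 0.297 CPM (edgeR log2 fold change -1.90 with SE 0.0812 and adjusted p = 4.59e-36). Cflar, an inhibitor of death receptor signalling, fell from 80.2 ± 1.38 to 61.8 ± 0.706 CPM, and the iron-binding defence protein Lcn2 fell from 15.1 ± 2.35 to 7.08 ± 0.859 CPM (log2 fold changes -0.38 and -1.10). The adhesion molecule Vcam1, chosen after its values were seen, rose from 0.727 ± 0.168 to 1.77 ± 0.225 CPM (log2 fold change 1.27), the greatest rise of these genes. Among kinases and inhibitors of cytokine receptor signalling 7 of 13 rose (53.8%, against 27.4% of all tested genes), 4 fell (30.8%, against 25.4%) and 2 were uncalled. Jak2, a kinase that cytokine receptors bind, rose from 97.0 ± 3.24 to 129 ± 2.81 CPM, while the feedback inhibitors Cish and Socs1 fell from 11.7 ± 0.932 to 7.03 ± 0.504 CPM and from 6.07 ± 0.122 to 3.30 ± 0.492 CPM (log2 fold changes 0.41, -0.74 and -0.88).

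The other 31 members had too few counts to be tested, with means of 0.0147 to 0.371 CPM and at most 13 counts in any library. They were 7 chemokines, 8 interleukins or colony-stimulating factors, 1 TNF ligand, 11 interleukin receptor chains and 4 TNF receptors. Ccl20, Il16, Il31 and Il12rb2 were at 0 in every vehicle library and had at most 2 counts in a palmitate library. Csf2, the growth factor of granulocytes and macrophages, had 1, 0 and 2 counts with vehicle and 0, 1 and 2 with palmitate. The interferon-induced chemokine Cxcl10 had 7, 6 and 6 counts with vehicle and 7, 9 and 4 with palmitate, and Il1a, an alarm cytokine, had 0, 1 and 1 counts with vehicle and 4, 2 and 5 with palmitate. Cxcl13, an attractant of B cells, had 6, 5 and 11 counts with vehicle and 0, 2 and 1 with palmitate, and the decoy receptor Il13ra2 had 6, 5 and 13 counts with vehicle and 1, 0 and 1 with palmitate. In the authors' deposited table both were lower with palmitate (Cxcl13 log2 fold change -2.98, q = 0.0218, and Il13ra2 log2 fold change -3.69, q = 0.0109). Of the tested members not past the threshold, 18 outside the panel of named genes had log2 fold changes of -0.39 to 0.15 and means of 0.501 to 86.4 CPM.

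Of the 50 calls, 35 held in direction and call under every alternative, and 15 were lost under at least 1 of them. With DESeq2 the members called higher numbered 11 in place of 20 and the ligands called higher 3 in place of 9, whereas those called lower remained within 1.5 times. The 15 lost with DESeq2 were Ccl8, Ccl25, Cxcl1, Cxcl16, Il11, Il34, Il6, Tnfsf9, Tnfsf13, Tnfsf13b, Rela, Il17rc, Il18rap, Il1rap and Il2rg. Thinning all libraries to the shallowest ended the calls of Ccl25, Cxcl1, Il17rc, Rela and Tnfsf13b, and testing without the count filter that of Il18rap. The authors' deposited table, at a q-value under 0.05, held 11 members as higher and 26 as lower, in a table with 24.2% of all genes called. Of these, 11 and 24 were also called here in the same direction, and the other 2 were Cxcl13 and Il13ra2. Ccl25, which guides T cells to the small intestine (from 18.1 ± 0.566 to 20.3 ± 1.42 CPM, log2 fold change 0.16), and Il17rc, a chain of the interleukin 17 receptor (from 70.0 ± 1.22 to 73.8 ± 2.97 CPM, log2 fold change 0.08), were called higher by small margins. Besides the genes described above, the calls of Ccl25, Il17rc, the receptor chain Il18rap (log2 fold change -0.18) and Il1rap, the accessory chain of interleukin 1 receptors (log2 fold change 0.22), did not hold without single libraries, given here with the log2 fold change that remained. Without vehicle replicate 1 it was lost for Ccl25 (0.14). Without vehicle replicate 2 it was lost for Il17rc (0.06) and Il18rap (-0.18). Without vehicle replicate 3 it was lost for Il17rc (0.08), Il18rap (-0.13) and Il1rap (0.11). Without palmitate replicate 2 it was lost for Ccl25 (0.13), Il17rc (0.05), Il18rap (-0.15) and Il1rap (0.20). Without palmitate replicate 3 it was lost for Ccl25 (0.15), Il17rc (0.08), Il18rap (-0.19) and Il1rap (0.21). Leaving out a library also gave calls that the full data did not, for Il1rn without vehicle replicate 3 (0.20), Tnfrsf1b without vehicle replicate 3 (0.14), Tnfsf10 without vehicle replicate 3 (1.21) or palmitate replicate 1 (0.96), Lif without vehicle replicate 1 (-0.10) or palmitate replicate 2 (-0.09), Nfkbib without vehicle replicate 2 (0.16), Tnfaip8l1 without vehicle replicate 3 (-0.10) or palmitate replicate 3 (-0.13), Tnfrsf22 without palmitate replicate 1 (0.11), Tnfrsf23 without palmitate replicate 2 (0.08), and Ccl27a (-0.39) and Tnfrsf11a (-0.33) without vehicle replicate 1. The spans of 21 of the 50 called members overlap a gene on the opposite strand in Gencode M21. The strand setting of the counting step is not known, so reads of such partners may be mixed. Those of 5 called members (Il10rb, Il2rg, Nfkb1, Tnfsf12 and Tnfsf13) overlap a gene on the same strand, where the values are uncertain whatever that setting.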

How the data were processed

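Raw counts per gene from 6 polyA libraries of CMT93 spheroids (3 vehicle, 3 palmitate) were used as deposited. The kit keeps strand, per the labels' protocols, whereas the sources used here do not give the strand setting of counting. Reads were handled by the authors with FastQC 0.11.8, STAR 2.6.1, HTSeq (no version given) and DESeq2 1.34.0 on mm39 (GRCm39), per the submitters' processing notes. Per the file headers, the deposited table of comparisons gives DESeq2 log2 fold changes, p-values, q-values and a score. Groups came from the sample labels. Here edgeR 4.0.16 in R 4.3.3 (TMM, filterByExpr with a minimum count of 10, robust glmQLFit, glmQLFTest, two-sided) was fitted to the whole table, with Benjamini-Hochberg adjustment over 14987 genes. SE is the size of a log2 fold change over the root of its F. SDs are over 3 libraries. Counting error weighs most on genes near or under 1 CPM. Each result was recomputed with DESeq2 1.42.0, with its size factors inside edgeR, without the count filter, with a replicate block, after thinning, and without each library in turn. The fits were tested on simulated data. Libraries held 18898896 to 22852940 counts. Pairs of libraries of a group differed by more than counting noise (chi-square over degrees of freedom 1.20 to 1.38), so none was taken for a copy. The members, roles and lists were chosen with earlier results of these data known. Values per library are given for up to 8 called members of each role by smallest p and for a fixed panel; promoters were taken from RefSeq (GRCm38.p6) for called ligands and NF-kB parts with large changes and a motif, and for Tnf. Plots used matplotlib 3.10.9.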

Additional observations from a re-analysis of the deposited data

How the results depend on the processing

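Counts of called members were within 1.5 times of the main counts with DESeq2's size factors, without the count filter, after thinning to the shallowest library and with the replicate block. With DESeq2, 11 members, 3 ligands and 16 other pathway genes were called higher, against 20, 9 and 25 with edgeR. The cause was not tested. With 1 library left out, members called higher numbered 15 to 20 and lower 29 to 32, ligands 6 to 9 and 13 to 15, receptors 4 to 7 and 9 to 11, NF-kB parts and TNF-induced genes 4 to 6 and 6 to 7, and other pathway genes 20 to 23 and 27 to 30. Of the 50 called members, 0 changed direction in the alternatives run. Among uncalled members, the log2 fold change of Nfkbia was -0.012 after thinning and, with 1 library left out, that of Tnfrsf1a ran from -0.0575 to 0.00270 and that of Csf1 from -0.0004 to 0.0719, so all 3 changed sign (palmitate replicate 3 left out for Tnfrsf1a, palmitate replicate 1 for Csf1). Same-numbered libraries did not deviate together across genes (correlations -0.0045, 0.0085 and 0.0071), nor did every library correlate best with its own number, so the numbers were not taken as pairs; with the replicate block 21 members were called higher and 30 lower, 7933 genes in place of 7915 over the table, and Tnfsf10 was called (0.79). Lif was called with DESeq2's size factors (-0.07). After thinning Tnfrsf22 was called (0.12), and without the count filter Tnfsf14 (-1.52), Cxcl13 (-2.82) and Il13ra2 (-3.45) were, the last 2 with DESeq2 too. Scaling moved the median of all genes by at most 0.01 on the log2 scale. Depth limits what can be said of the 31 members below the count filter.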
